A study of Mus musculus with 17 samples.

Results

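The adrenergic receptors are the G protein-coupled receptors for noradrenaline and adrenaline, and their mRNA was followed here in astrocytes of the early postnatal mouse cortex and of 3 sensory nuclei of the thalamus. The 6 genes described are Adra1a, Adra1b, Adra1d, Adra2a, Adra2c and Adrb1, of 26556 genes with a row in the count files. They were chosen by symbol, and the only measured values used were the counts that gave a gene a row in the files. They were proposed with earlier results of these data known. The total count over the 17 libraries ran from 121 for Adra1d to 16671 for Adra2a. Adra2b and Adrb3 also had rows, with totals of 180 and 96, and are given only for comparison.

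All libraries came from FVB mice of the Gfap::GFP genotype, in which a Gfap promoter drives green fluorescent protein, at postnatal day 7 (P7). Fluorescent cells were purified by cell sorting, and each library pooled 4 brains. The groups were the cortex (primary somatosensory area, S1, n = 4), the dorsolateral geniculate nucleus (dLG, a visual relay, n = 5), the ventral posteromedial nucleus (VPM, a somatosensory relay, n = 4) and the ventromedial geniculate nucleus (MGv, an auditory relay, n = 4). No group was treated, and all shared strain, genotype and age. Nothing in the labels states whether 2 libraries of a group came from separate litters or dissections, so the p-values measure the spread between these libraries.

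Noradrenaline in the forebrain comes mainly from neurons of the locus coeruleus, and astrocytes are among its known targets. Alpha1 receptors couple to Gq, which acts through phospholipase C and calcium release from stores. Alpha2 receptors couple to Gi/o, which lowers cyclic AMP, and beta receptors couple to Gs, which raises it.

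The libraries held 18213687 to 50366363 counts, with cortex replicate a the deepest. A count of 3 was worth 0.0596 to 0.165 CPM, the count scaled to a common library total. dLG replicate c had the fewest genes detected, 17749, against up to 23365 elsewhere, and 0 counts of Adra1d, Adra2c, Adra2b and Adrb3. The astrocyte markers Aqp4, a water channel, and Aldh1l1, a folate enzyme, averaged 1560 to 2016 CPM and 472.5 to 733.8 CPM over the groups. The full list of 8 astrocyte markers summed to 12270 to 13140 CPM in cortex and 7120 to 8628 in dLG. In VPM it summed to 6058 to 8416 CPM and in MGv to 5723 to 14920. Pdgfra, which marks oligodendrocyte precursors, averaged 896.1 to 1179 CPM, so the sorted cells also carried the transcripts of that lineage. The summed level of 10 neuronal markers was 1329 to 1614 CPM in cortex, 1575 to 2031 in dLG, 1082 to 2026 in VPM and 901.8 to 2345 in MGv. Of these, Rbfox3 averaged 38.1 CPM in cortex, 20.9 in dLG, 11.7 in VPM and 15.8 in MGv. Tubb3 averaged 162.6, 195.0, 111.7 and 178.5 CPM in the same order. In bulk libraries, fewer cells of a type and less RNA per cell cannot be told apart.

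Levels below are CPM scaled by the trimmed mean of M values (TMM). Among the 6 receptors the largest differences that passed the test were in Adra2a, the alpha2A receptor, which was 4.18-fold higher in VPM than in dLG and 5.05-fold higher in VPM than in cortex. Adrb1, the beta1 receptor, was higher in all 3 nuclei than in cortex, by 1.99-fold in dLG, 1.94-fold in VPM and 1.47-fold in MGv. Adra1b, the alpha1B receptor, was lower in VPM than in cortex and MGv, and lower in dLG than in cortex. A gene was called at a Benjamini-Hochberg adjusted p under 0.1 over all 17856 genes tested with edgeR, and all 6 receptors entered every test. The Adra1b calls had an adjusted p over 0.05, and each was lost on leaving out any 1 of several libraries.

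**Figure D1:**
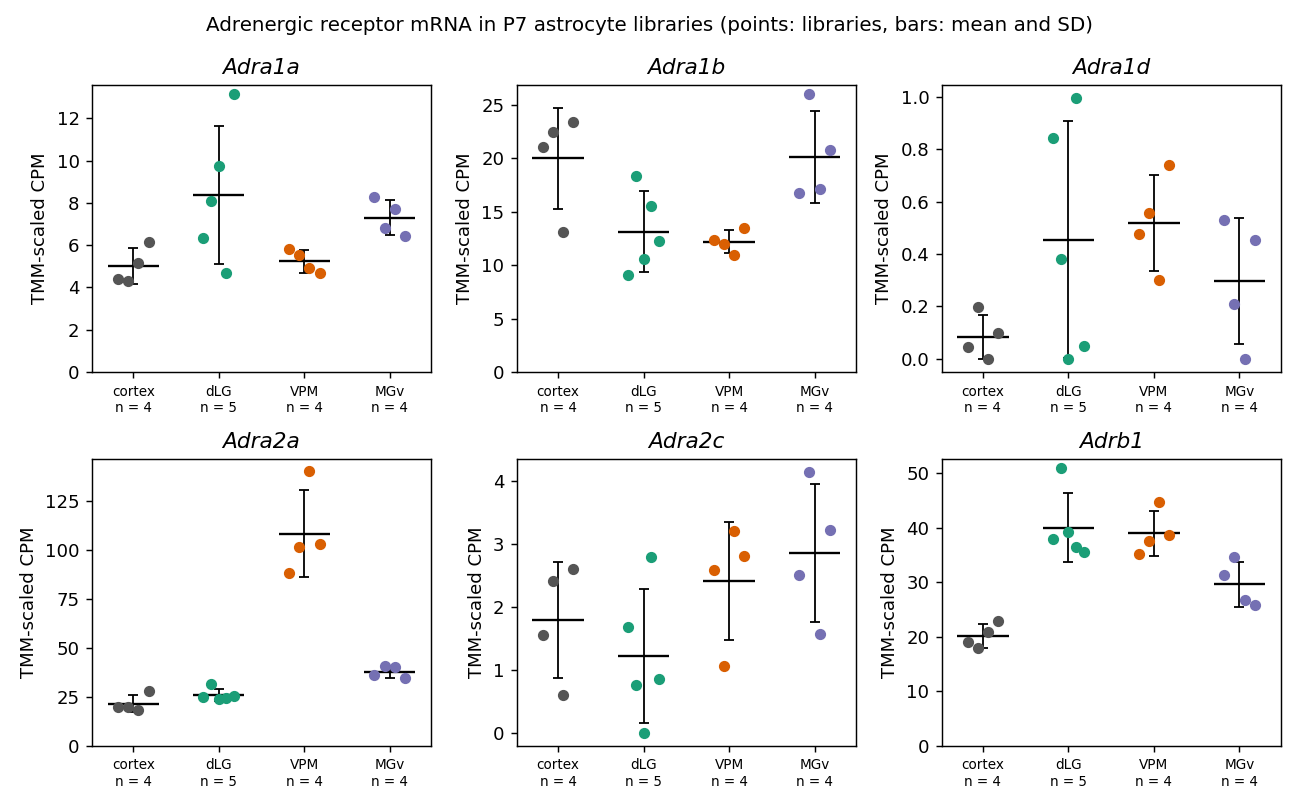
Level of each receptor in every library, in TMM-scaled CPM on the vertical axis, by group on the horizontal axis, with points for libraries and bars for the mean and SD. The 4 VPM libraries of Adra2a lie between 88.5 and 140.6 CPM, above the highest library of any other group at 40.6, and every thalamic library of Adrb1 lies above the highest cortical one at 22.8.

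Among the alpha1 receptors, Adra1b (ENSMUSG00000050541) lies on the minus strand at chr11:43774606-43901210 of GRCm38. Its levels in cortex replicates a to d were 21.1, 22.5, 13.1 and 23.4 CPM. In dLG replicates a to e they were 9.09, 18.3, 10.5, 15.6 and 12.2 CPM. The cortical and dLG ranges overlapped, since 1 cortical library stood well below the other 3. In VPM replicates a to d the levels were 12.4, 12, 10.9 and 13.5 CPM. In MGv replicates a to d they were 16.7, 26.02, 17.1 and 20.8 CPM. Every VPM library was below every MGv library, while VPM and cortex overlapped through cortex replicate c alone. The means ± SD were 20.2 ± 4.31 CPM in MGv (n = 4), 20.02 ± 4.73 in cortex (n = 4), 13.2 ± 3.77 in dLG (n = 5) and 12.2 ± 1.07 in VPM (n = 4).

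The order of Adra1b was thus MGv, cortex, dLG and VPM, and it fell into 2 neighbouring pairs. MGv and cortex differed by 0.01 on the log2 scale (standard error, SE, 0.23, adjusted p = 0.986). VPM and dLG differed by -0.11 (SE 0.23, adjusted p = 0.806). Between the pairs the gene was lower in VPM than in cortex by a log2 fold change of -0.71 (SE 0.24, adjusted p = 0.0845). It was lower in VPM than in MGv by -0.72 (SE 0.24, adjusted p = 0.0626) and in dLG than in cortex by -0.61 (SE 0.22, adjusted p = 0.0796). MGv over dLG was 0.62 (SE 0.22) with an adjusted p of 0.397 and was not called. None of the 3 calls passed at an adjusted p under 0.05, and each was lost on leaving out any 1 of several libraries, with adjusted p of up to 0.240. The summed levels of the neuronal markers, given above, overlapped between MGv and each other group, and between VPM and each other group, and their part in the Adra1b values was not tested.

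Adra1a (ENSMUSG00000045875), the alpha1A receptor, is on the plus strand at chr14:66635251-66771168. Cortex replicates a to d held 4.39, 4.33, 5.15 and 6.13 CPM. dLG replicates a to e held 6.32, 8.08, 9.74, 4.68 and 13.1 CPM, a wider spread than in any other group. VPM replicates a to d held 5.83, 5.53, 4.91 and 4.68 CPM, and MGv replicates a to d held 8.28, 6.79, 7.70 and 6.44 CPM. All MGv libraries were above all cortical and VPM libraries, and dLG overlapped every group. The means ± SD were 8.39 ± 3.26 CPM in dLG, 7.30 ± 0.842 in MGv, 5.24 ± 0.532 in VPM and 5.00 ± 0.843 in cortex. Of the neighbours in that order, MGv and dLG differed by -0.20 (log2, SE 0.27, adjusted p = 0.998). VPM and MGv differed by -0.48 (SE 0.28, adjusted p = 0.308), and VPM and cortex by 0.07 (SE 0.28, adjusted p = 0.952). Only dLG over cortex was called, at 0.75 (SE 0.27, adjusted p = 0.0773). Without dLG replicate e, the highest library, its adjusted p was 0.196. VPM over dLG was -0.68 (SE 0.27, adjusted p = 0.128), and it was called without dLG replicate d (adjusted p = 0.0377) and with DESeq2 (adjusted p = 0.0423).

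Adra1d (ENSMUSG00000027335), the alpha1D receptor, is on the minus strand at chr2:131545850-131562283. It was near the detection limit throughout. Its counts were 2, 4, 0 and 2 in cortex replicates a to d, and 18, 8, 0, 20 and 1 in dLG replicates a to e. They were 10, 10, 6 and 15 in VPM replicates a to d, and 11, 4, 0 and 10 in MGv replicates a to d. VPM was the only group in which every library exceeded 3 counts, and no VPM library overlapped the cortical range. The mean levels were 0.519 ± 0.182 CPM in VPM, 0.454 ± 0.452 in dLG, 0.297 ± 0.241 in MGv and 0.0841 ± 0.0848 in cortex. No difference passed the edgeR test with all libraries, with a log2 fold change of 2.60 (SE 1.20, adjusted p = 0.277) in VPM over cortex. DESeq2 called thalamus over cortex, at 2.40 (adjusted p = 0.0934), and without dLG replicate c edgeR called dLG over cortex, at 2.73 (adjusted p = 0.0961). An opposite-strand gene, Gm14285, covers 7.74% of its exonic length, and the strand setting of the counting is not given in the sources used here.

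Of the alpha2 receptors, Adra2a (ENSMUSG00000033717) is a single-exon gene on the plus strand at chr19:54044151-54048982. Its levels in cortex replicates a to d were 19.99, 19.8, 18.4 and 27.8 CPM. In dLG replicates a to e they were 24.8, 31.5, 23.9, 24.2 and 25.5 CPM. These 2 groups overlapped through cortex replicate d, the highest cortical library. MGv replicates a to d held 36.1, 40.6, 40.3 and 34.4 CPM, and VPM replicates a to d held 88.5, 101.8, 140.6 and 103.0 CPM. MGv lay above all dLG and cortical libraries, and VPM lay above all others, with its lowest library at 88.5 CPM against 40.6 in the highest MGv library. The means ± SD were 108.5 ± 22.4 CPM in VPM (n = 4), 37.8 ± 3.08 in MGv (n = 4), 25.97 ± 3.16 in dLG (n = 5) and 21.5 ± 4.28 in cortex (n = 4).

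VPM exceeded cortex by a log2 fold change of 2.34 (SE 0.17, adjusted p = 2.8e-08). It exceeded dLG by 2.06 (SE 0.16, adjusted p = 4.63e-07) and MGv by 1.52 (SE 0.16, adjusted p = 2.79e-05). These were the largest called differences among the 6 receptors. MGv exceeded cortex by 0.82 (SE 0.16, adjusted p = 0.00312). MGv over dLG was 0.54 (SE 0.15, adjusted p = 0.161) and dLG over cortex was 0.27 (SE 0.16, adjusted p = 0.266), so neither pair of neighbours at the lower end was called. Each of the 3 differences of VPM was called after leaving out any 1 of the 17 libraries, with log2 fold changes of 1.87 to 2.14 against dLG. Of the 7 microglial markers, all 7 were lower in VPM than in dLG, with summed levels of 7.21 to 12.3 CPM against 12.8 to 103.4, and 1 of 10 neuronal markers was lower and 0 higher. The astrocyte list summed to 6058 to 8416 CPM in VPM and 7120 to 8628 in dLG, with 1 of 8 genes higher and 3 lower in VPM. The oligodendrocyte lineage list summed to 6380 to 9141 CPM and 6309 to 7983, with 2 of 7 higher and 1 lower. Over all genes tested, 5.76% were higher and 7.93% lower in VPM than in dLG. The part of these marker differences in the Adra2a values was not tested.

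Adra2c (ENSMUSG00000045318), the alpha2C receptor, lies on the plus strand at chr5:35278319-35281763. Its levels were 1.56, 2.41, 0.594 and 2.61 CPM in cortex replicates a to d, and 1.69, 0.765, 0, 2.79 and 0.858 CPM in dLG replicates a to e. They were 2.58, 1.06, 3.21 and 2.81 CPM in VPM replicates a to d, and 2.50, 4.15, 1.57 and 3.22 CPM in MGv replicates a to d. All 4 groups overlapped. The means ± SD ran from 2.86 ± 1.09 CPM in MGv through 2.41 ± 0.938 in VPM and 1.79 ± 0.920 in cortex to 1.22 ± 1.06 in dLG, and no pair of groups was called. The difference with the lowest p was MGv over dLG, 1.23 (log2, SE 0.72, adjusted p = 0.921).

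The beta1 receptor Adrb1 (ENSMUSG00000035283) lies on the plus strand at chr19:56722199-56733113, on the same chromosome as Adra2a. Cortex replicates a to d held 19.1, 17.9, 20.8 and 22.8 CPM, and dLG replicates a to e held 37.8, 51.0, 39.2, 36.5 and 35.5 CPM. VPM replicates a to d held 35.1, 37.5, 44.8 and 38.6 CPM, and MGv replicates a to d held 31.2, 34.6, 26.8 and 25.8 CPM. The cortical libraries were below all 13 thalamic libraries, and MGv was below all dLG and VPM libraries. The means ± SD were 40.0 ± 6.29 CPM in dLG, 39.0 ± 4.12 in VPM, 29.6 ± 4.11 in MGv and 20.2 ± 2.16 in cortex.

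Adrb1 was higher than in cortex by a log2 fold change of 0.99 in dLG (SE 0.15, adjusted p = 0.000173). The change was 0.95 in VPM (SE 0.16, adjusted p = 0.000467) and 0.56 in MGv (SE 0.15, adjusted p = 0.0277). Each of these calls held without any 1 library, with an adjusted p of at most 0.0015 in dLG, 0.0037 in VPM and 0.0999 in MGv. Among the nuclei, VPM and dLG differed by -0.04 (SE 0.15, adjusted p = 0.904). MGv was below dLG by -0.43 (SE 0.15, adjusted p = 0.328) and VPM was above MGv by 0.40 (SE 0.15, adjusted p = 0.111), and neither difference was called although the libraries did not overlap.

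With the 13 thalamic libraries taken as 1 group, 2 of the 6 receptors were called against the 4 cortical libraries, both higher in thalamus, where 11.4% of all genes were called (5.45% higher and 5.93% lower). Adrb1 was higher by 0.86 (log2, SE 0.16, adjusted p = 0.00127) and Adra2a by 1.36 (SE 0.48, adjusted p = 0.0926). The thalamic mean of Adra2a combined a VPM mean of 108.5 CPM with means of 25.97 and 37.8 CPM in the other nuclei. With thalamus taken as dLG and MGv only, its log2 fold change was 0.57 (adjusted p = 0.0604). As the mean of the 3 nuclei in the fit of 4 groups, which keeps the nuclei apart in the spread, it was 1.14 (adjusted p = 1.41e-05). The call of Adra2a was lost on leaving out any 1 cortical library or VPM replicate a, b or d, with adjusted p from 0.102 to 0.226. The remaining receptors were not called, at 0.50 for Adra1a (adjusted p = 0.287), -0.42 for Adra1b (adjusted p = 0.319), 2.31 for Adra1d (adjusted p = 0.206) and 0.22 for Adra2c (adjusted p = 0.893).

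Nucleus by nucleus against cortex, 3 receptors were called in dLG (2 higher and 1 lower, background 19.4% of genes), 3 in VPM (2 higher and 1 lower, background 9.00%) and 2 in MGv (both higher, background 15.4%). Between nuclei, 1 was called in VPM against dLG (background 13.7%, 5.76% higher and 7.93% lower), 2 in VPM against MGv (1 higher and 1 lower, background 15.4%) and 0 in MGv against dLG (background 1.02%). In MGv against dLG the lowest adjusted p of a receptor was 0.161, for Adra2a. DESeq2 called 1 receptor there, Adra2a (adjusted p = 0.0503), beside 210 genes called higher and 202 lower of 21341. The 3 comparisons with cortex share the cortical libraries. The median log2 fold change of the 6 receptors was 0.68 for thalamus over cortex, beside 0.02 over all genes, and 0.08 for VPM over dLG, beside 0.02.

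**Figure D2:**
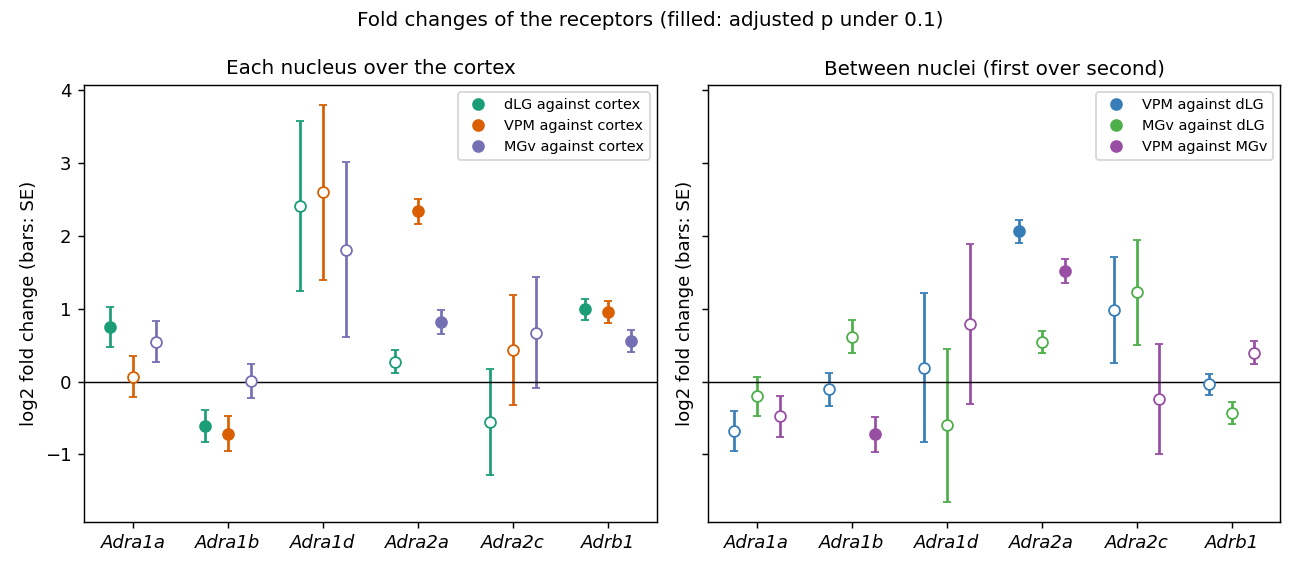
Log2 fold change of each receptor on the vertical axis, with bars for the standard error and filled points for calls at an adjusted p under 0.1, for each nucleus over the cortex on the left and for pairs of nuclei on the right. Adra2a stands at 2.34 in VPM over cortex and 2.06 in VPM over dLG. Adra1d and Adra2c, the receptors with the lowest total counts, have the widest bars.

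The numbers in the library names fall into 3 series by their first 3 digits, and the labels do not say what these numbers mark. Series 321 holds cortex c and d, dLG a and b, VPM c and d and all 4 MGv libraries, series 324 holds cortex a and b, dLG d and e and VPM a and b, and series 322 holds dLG c alone. Within series 321, Adra2a in VPM exceeded cortex by 2.38 (log2, adjusted p = 0.000332), dLG by 2.08 (adjusted p = 0.00628) and MGv by 1.65 (adjusted p = 0.00253). Within series 324 it exceeded cortex by 2.26 (adjusted p = 0.00722) and dLG by 1.9 (adjusted p = 0.148). The size of the VPM difference was thus alike in both series, each with 2 libraries of VPM and 2 of dLG. The call against dLG was lost in series 324. In that fit 0 of 17269 genes were called higher and 2 lower in VPM than in dLG. The cause of the loss was not tested.

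Adrb1 in dLG over cortex was 1.04 within series 321 (adjusted p = 0.0310) and 1.00 within series 324 (adjusted p = 0.125). In VPM over cortex it was 0.91 (adjusted p = 0.0522) and 0.97 (adjusted p = 0.140), and in MGv over cortex, which only series 321 holds, 0.46 (adjusted p = 0.236). Thalamus over cortex was 0.74 (adjusted p = 0.158) and 0.98 (adjusted p = 0.0608) for Adrb1, and 1.28 (adjusted p = 0.385) and 1.6 (adjusted p = 0.448) for Adra2a. All these values kept their sign. Adra2a in MGv over cortex was 0.73 (adjusted p = 0.0820) within series 321. The calls of Adra1a and Adra1b were not made within either series, at 0.37 and 1.07 for Adra1a in dLG over cortex, -0.40 and -0.61 for Adra1b in dLG over cortex, -0.60 and -0.84 for Adra1b in VPM over cortex, and -0.76 within series 321 for Adra1b in VPM over MGv.

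Levels were compared between receptors only per kilobase (kb) of exon. On that scale Adrb1, Adra1b and Adra2a made up nearly all of the receptor mRNA. In cortex the mean shares of the summed level were 34.5 ± 5.22% for Adrb1, 33.7 ± 5.26% for Adra1b and 25.4 ± 1.74% for Adra2a. In dLG they were 52.2 ± 3.11%, 16.97 ± 3.08% and 23.8 ± 1.08%. The cortical make-up was thus nearly even among the 3 genes, whereas Adrb1 led in every dLG library. In VPM the shares were 29.6 ± 1.07% for Adrb1, 9.40 ± 1.77% for Adra1b and 57.0 ± 3.37% for Adra2a. In MGv they were 35.9 ± 2.43%, 24.3 ± 3.15% and 32.3 ± 3.12%. Adra1a stayed at 1.57 to 4.33% on average, Adra2c at 1.59 to 3.36% and Adra1d at 0.244 to 1.07%. Per kb of the longest transcript in place of all exons, Adra1a was at 3.01 to 7.81% on average and Adra2a in VPM at 53.7 ± 3.41%.

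**Figure D3:**
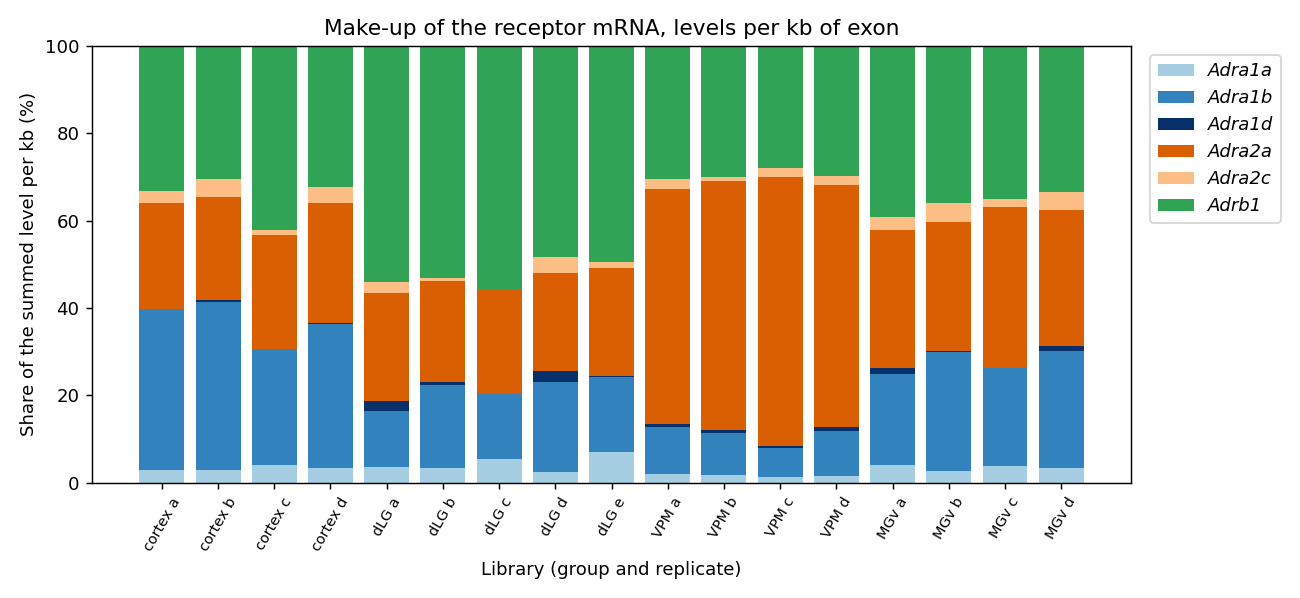
Make-up of the receptor mRNA in each of the 17 libraries, as the share of the summed TMM-scaled CPM per kb of exon in percent on the vertical axis, with 1 bar per library and 1 colour per receptor. Adra2a takes 53.8 to 61.6% in the VPM libraries, and Adrb1 takes 48.4 to 55.8% in the dLG libraries.

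By receptor class, the alpha1 share was 37.2 ± 4.92% in cortex, 28.4 ± 2.64% in MGv, 22.4 ± 2.80% in dLG and 11.7 ± 2.28% in VPM. The alpha2 share was 58.8 ± 3.32% in VPM, 35.7 ± 2.18% in MGv, 28.3 ± 1.91% in cortex and 25.4 ± 1.53% in dLG. No VPM library overlapped another group in either class. The shares of a library add up to the whole, so the high Adra2a level in VPM lowers its other shares. The mean Adra1b level itself was 3.61 CPM per kb in VPM and 3.89 in dLG. The summed level of the 6 receptors was 39.2 ± 5.67 CPM per kb in VPM, 24.4 ± 2.73 in MGv, 22.6 ± 3.26 in dLG and 17.5 ± 2.63 in cortex.

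The ratio of Adra2a to Adrb1 per kb, the main Gi/o-coupled against the Gs-coupled receptor, was read in each library. It was 1.77, 1.903, 2.20 and 1.87 in VPM replicates a to d and 0.458, 0.433, 0.426, 0.464 and 0.503 in dLG replicates a to e. It was 0.732, 0.775, 0.618 and 0.852 in cortex replicates a to d and 0.808, 0.820, 1.05 and 0.935 in MGv replicates a to d. VPM lay above and dLG below both other groups with no overlap, while cortex and MGv overlapped. Both libraries of each series showed this order in VPM, cortex and dLG.

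**Figure D4:**
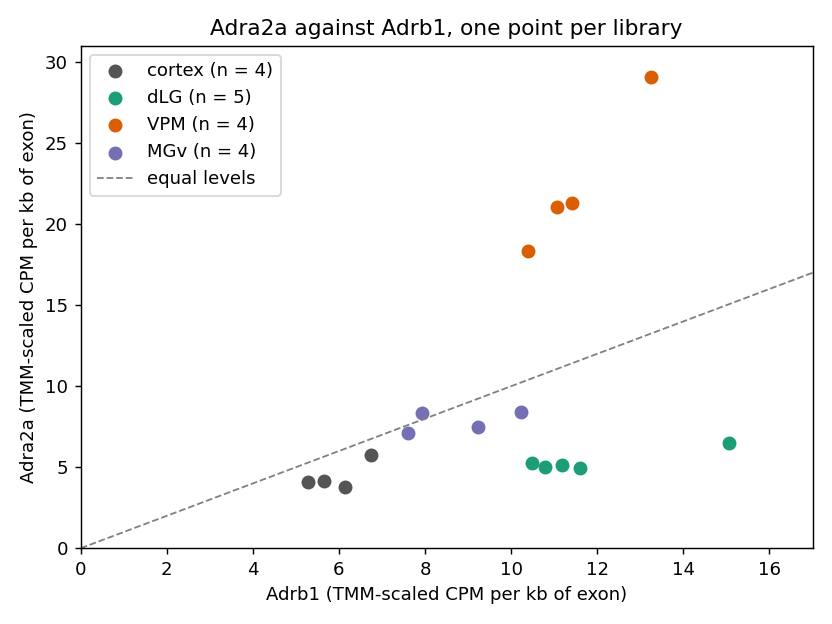
Adra2a on the vertical axis against Adrb1 on the horizontal axis, both in TMM-scaled CPM per kb of exon, with 1 point per library and a dashed line of equal levels. The VPM libraries lie above the line, with ratios of 1.77 to 2.20, and the dLG libraries lie at the same Adrb1 level below it, with ratios of 0.426 to 0.503.

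Adra2b and Adrb3 were scarce, with group means of 0.101 to 0.815 CPM for Adra2b and 0.172 to 0.344 for Adrb3. Adra2b was called in dLG over cortex alone, at 2.77 (log2, SE 1.08, adjusted p = 0.0989), from 0 to 5 counts in the cortical libraries and 0 to 35 in the dLG libraries.

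The signalling genes downstream were read from lists for each arm. Some counts are also given for VPM against dLG, where 5.76% of all genes rose and 7.93% fell. The main comparison was thalamus over cortex, where 5.45% of all genes rose and 5.93% fell. Of 13 tested genes of the Gq arm, 3 rose and 2 fell. Prkcd, protein kinase C delta, fell by 2.14 on the log2 scale (SE 0.46, adjusted p = 0.00481), from 59.0 ± 4.38 CPM in cortex to 13.3 ± 6.35 in thalamus. Prkca, protein kinase C alpha, rose by 0.55 (adjusted p = 0.0419) and Itpr1, a receptor for inositol trisphosphate that releases calcium, by 1.19 (adjusted p = 0.0591). Gna14, a Gq-family alpha subunit, fell by 1.83 (adjusted p = 0.0726) at a low level, 2.22 CPM in cortex and 0.620 in thalamus.

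Of 8 genes of the Gi/o arm, 1 rose and 0 fell. This was Kcnj6, a G protein-gated potassium channel, at 2.17 (log2, adjusted p = 0.0451), with means of 0.691 CPM in cortex, 4.50 in dLG, 3.96 in MGv and 0.768 in VPM. In VPM it was below dLG by 2.54 (log2 fold change -2.54, adjusted p = 0.00320), where Adra2a was higher. In VPM against dLG, 0 genes of this arm rose and 3 fell.

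Of 21 genes of the Gs and cyclic AMP arm, 2 rose and 0 fell in thalamus over cortex, and both were adenylyl cyclases, which make cyclic AMP. Adcy8 rose by 1.66 (SE 0.18, adjusted p = 3.24e-06), from 29.5 ± 4.71 CPM in cortex to 93.1 ± 20.6 in thalamus, and was 100.8 CPM in dLG, 97.6 in MGv and 78.8 in VPM. Adcy5 rose by 0.68 (adjusted p = 0.0441). Adcy8, like Adrb1, was thus higher in each nucleus than in cortex by its mean. In VPM against dLG, 0 of the arm rose and 4 fell.

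Of 16 tested genes that desensitize receptors or, as regulators of G protein signalling (RGS), shorten the G protein's active state, 3 rose and 2 fell in thalamus over cortex. Rgs20 fell by 0.76 (adjusted p = 0.000721), from 107.5 to 63.5 CPM. Rgs4 rose by 1.17 (adjusted p = 0.00959), Rgs8 by 3.46 (adjusted p = 0.0150) and Rgs2 by 0.61 (adjusted p = 0.0743). The 3 RGS genes that rose are given by nucleus next. Rgs8 averaged 23.3 CPM in dLG, 8.86 in MGv and 2.15 in VPM, against 1.14 in cortex, and VPM was below dLG by a log2 fold change of -3.43 (adjusted p = 0.000221). Rgs4 stood at 31.2 to 32.8 CPM in all 3 nuclei, against 14.2 in cortex. Rgs2 averaged 42.8 CPM in dLG, 45.1 in MGv and 28.0 in VPM, against 25.5 in cortex, and VPM was below dLG by -0.61 (log2, adjusted p = 0.0399). In VPM against dLG, 0 genes of this list rose and 5 fell.

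Of 11 genes for noradrenaline synthesis, uptake and breakdown, 7 were tested, and 2 rose and 1 fell. Th, Dbh and Pnmt, enzymes of catecholamine synthesis, were too low to be tested. Slc22a3, an extraneuronal transporter of monoamines, rose by 0.90 (adjusted p = 0.0353), and was highest in VPM at 148.7 CPM, against 103.0 in MGv, 86.3 in dLG and 59.2 in cortex. The same order of groups held for Adra2a. Slc18a2, the vesicular monoamine transporter, rose by 1.79 (adjusted p = 0.0183) to 66.0 CPM in dLG, 30.1 in MGv and 27.8 in VPM from 12.5 in cortex. Maob, a monoamine oxidase that breaks amines down, fell by 1.29 (adjusted p = 0.00161), from 31.7 ± 5.21 to 13.0 ± 4.74 CPM. The median log2 fold change was 0.29 for the Gq list, -0.09 for Gi/o, 0.25 for Gs and cyclic AMP, 0.14 for desensitization and RGS and 0.08 for the noradrenaline list, beside 0.02 over all genes.

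**Figure D5:**
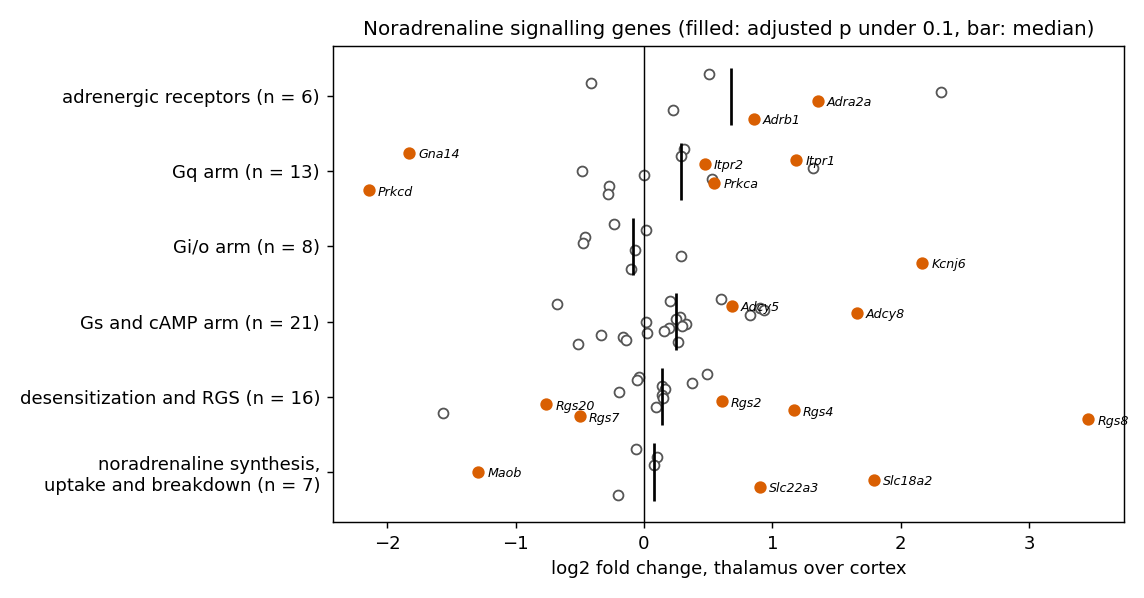
Log2 fold change of thalamus over cortex on the horizontal axis for each tested gene of the lists on the vertical axis, with filled points for calls at an adjusted p under 0.1 and a bar at each list's median. Prkcd at -2.14, Adcy8 at 1.66 and Rgs8 at 3.46 stand far from the medians, which lie between -0.09 and 0.29 for the lists other than the receptors.

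Markers of cells other than astrocytes also moved between thalamus and cortex. Over all genes tested, 5.45% were higher and 5.93% lower in thalamus. Of 10 neuronal markers, 2 were higher and 1 was lower in thalamus, and of 8 astrocyte markers 0 were higher and 3 lower. Of the mural cell and fibroblast markers, 1 was higher and 1 lower, with sums of 38.7 to 66.5 CPM in cortex and 2.51 to 32.9 in the thalamic libraries. Both tested ependymal markers were lower. Of the 7 oligodendrocyte lineage, 7 microglial and 5 tested endothelial markers, 0 were called in either direction. Pdgfrb, a pericyte marker, averaged 38.2 CPM in cortex and 1.55 to 3.52 in the nuclei. The part of these differences in the receptor values was not tested.

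For each receptor, the genes with the most similar pattern were those with the smallest root mean square (RMS) difference in centred log2 level over the 17 libraries. Adra2a was nearest to Prss35 (0.51 on the log2 scale), Igsf1 (0.53) and Cyp7b1 (0.57), beside a spread of Adra2a about its own mean of 0.90. Prss35 averaged 145.3 CPM in VPM and 43.9 to 79.4 in the other groups. Adrb1 was nearest to Tcf12 (0.24), Cntn1 (0.25) and Arpp21 (0.26), beside its own spread of 0.42, and each of these was lowest in cortex. Adra1a was nearest to Kcna2 (0.16), Cpeb3 (0.20) and Brd2 (0.20), beside 0.42, and Kcna2 averaged 44.4, 66.6, 42.2 and 58.9 CPM in cortex, dLG, VPM and MGv. The nearest genes of Adra1b were less close than those of Adra1a and Adrb1, with Gpr45, Prelid3a and Aph1c at 0.28 to 0.29 beside 0.44. For the scarce receptors they were Glra2, Slc24a2 and Rasd2 for Adra1d (0.70 to 0.74 beside 1.20) and Fndc9, Zfp429 and Rab40b for Adra2c (0.51 to 0.60 beside 1.28).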

How the data were processed

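RNA of sorted astrocytes was converted to cDNA with the SMARTer Ultra Low kit and sequenced as single reads. The deposited files hold raw counts of reads per gene, 1 file a library. Per the study's methods and the submitters' processing notes, the authors trimmed adapters with Cutadapt and Trim Galore, aligned reads to mm10 with STAR 2.7.0d, handled files with SAMtools 1.9 and counted with featureCounts of Subread 1.6.4 on an Ensembl annotation. The strand setting is not given in the sources used here. The files hold only genes with a total of at least 10 counts.

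Of 26556 gene identifiers, 26548 were matched to symbols, and positions and exon lengths came from GENCODE M21 (GRCm38). edgeR 4.0.16 in R 4.3.3 was run on the counts with filterByExpr, TMM factors and the quasi-likelihood test, robust to outlying genes, on 13 thalamic against 4 cortical libraries and on 4 groups for the 6 pairs. P-values were adjusted by Benjamini-Hochberg over all 17856 genes tested, with calls under 0.1. SE is the log2 fold change over the root of F. Scripts were tested on simulated data. Log2 levels for likeness used a prior count of 2. DESeq2 1.42.0, other filters, a replicate block, the library number series, single groups and leaving out each library were the alternatives. Counts limit the precision, and the floor of 3 counts covers counting error only.

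The receptors, the pathway lists and the marker lists were chosen with earlier results of these data known. Named were the 6 receptors, up to 4 called genes with the lowest p from each pathway list and the 3 nearest genes of each receptor. Of the first 2 genes of each marker list, only Aqp4, Aldh1l1, Rbfox3, Tubb3, Pdgfra and Pdgfrb were named. Letters of replicates are shared between groups. Over 24 pairs of libraries with the same letter, 4 had a correlation of deviations from the group means over 0.1 (range -0.157 to 0.219). These were cortex d with dLG d (0.204) and MGv d (0.216), dLG d with MGv d (0.199) and MGv b with VPM b (0.219). The median was 0.0067 for the same letter and -0.0123 for other letters. The letters were not taken to pair the libraries, but this check cannot exclude a pairing.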

Additional observations from a re-analysis of the deposited data

Results flagged for a closer look

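Of 24 sets of libraries, 1 for each receptor in each group, 2 held a library whose gap to the nearest other exceeded Dixon's 95% critical value. Chance alone gives about 1 in 20. Both were dLG replicate b, with 31.5 CPM of Adra2a against 23.9 to 25.5 CPM in the other dLG libraries, and 51.0 CPM of Adrb1 against 35.5 to 39.2. Since both fell in the same library, they are not independent, and their rate cannot be set against that of chance. Without this library, Adra2a in VPM over dLG and Adrb1 in dLG over cortex were still called.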

How the results depend on the processing

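The calls of Adra2a in VPM over cortex and over MGv and in MGv over cortex held under every alternative run, and that in VPM over dLG under all but the added fit within series 324. For thalamus against cortex, 2 receptors became 1 (Adrb1) at an adjusted p under 0.05, with no filter on low counts, with the replicate block and within series 324, 0 within series 321 and 3 with DESeq2 (Adra1d added, adjusted p = 0.0934), and leaving out a library gave 1 to 2. For dLG against cortex, 3 became 1 (Adrb1) at an adjusted p under 0.05, with no filter and with the series as a covariate. The same 1 was left within series 321 and with only the 2 groups fitted. The count was 2 (Adra1b and Adrb1) with the replicate block and 0 within series 324, and leaving out a library gave 1 to 3. For VPM against cortex, 3 became 2 (Adra2a and Adrb1) at an adjusted p under 0.05 and within series 321. The count was 1 (Adra2a) within series 324, and leaving out a library gave 2 to 3. For MGv against cortex, 2 became 1 (Adra2a) within series 321. For VPM against dLG, 1 became 2 (Adra1a and Adra2a) with DESeq2 and with at least 10 counts in every library, a filter that only 4 receptors pass, and 0 within series 324, and leaving out a library gave 1 to 2. For MGv against dLG, 0 became 1 (Adra2a) with DESeq2, and leaving out a library gave 0 to 1, with the 1 on leaving out cortex d. For VPM against MGv, 2 became 1 (Adra2a) at an adjusted p under 0.05 and within series 321, and 3 with the series as a covariate (Adrb1 added, adjusted p = 0.0487), and leaving out a library gave 1 to 3. The replicate block made each same-letter set a term, and whether the letters pair the libraries is not known. The fit within series 324 and the fit of dLG and MGv against cortex were chosen after seeing the data. Some of these fits also held fewer libraries or genes, and the cause of the changes was not tested.

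Of 1058 alternative log2 fold changes, 21 had the other sign, each at an adjusted p of 0.803 or more, and none belonged to a called difference. Within series 321 these were Adra1a in VPM over cortex (-0.26) and MGv over dLG (0.021), Adra1d in VPM over dLG (-0.28) and Adra2c in VPM over MGv (0.039). Within series 324 they were Adra2c in thalamus over cortex (-0.11), VPM over cortex (-0.12) and VPM over dLG (-0.033), and Adra1d in VPM over dLG (-0.040). The series as a covariate gave -0.14 for Adra1d in VPM over dLG, and the replicate block 0.036 for Adra1a in MGv over dLG. Leaving out a library gave -0.051 to 0.49 for Adra2c in thalamus over cortex, -0.0014 to 0.18 for Adra1a in VPM over cortex, -0.11 to 0.14 for Adra1b in MGv over cortex, -0.22 to 0.041 for Adra1b, -0.14 to 0.69 for Adra1d and -0.15 to 0.065 for Adrb1 in VPM over dLG, -0.35 to 0.026 for Adra1a in MGv over dLG, and -0.49 to 0.0047 for Adra2c in VPM over MGv.

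Leaving out a library ended the call of Adra1a in dLG over cortex in 6 cases (cortex a, b, c and dLG b, c, e, adjusted p 0.109 to 0.196). It ended that of Adra1b in dLG over cortex in 10 (cortex a, b, d, dLG a, c, e, MGv d and VPM a, c, d, 0.106 to 0.240), in VPM over cortex in 7 (cortex a, b, d and all VPM libraries, 0.113 to 0.220) and in VPM over MGv in 5 (MGv b, d and VPM a, b, c, 0.104 to 0.156). It added Adra2a in dLG over cortex (0.0693) and MGv over dLG (0.0989) without cortex d, Adra1d in dLG over cortex (0.0961) without dLG c, Adra1a in VPM over dLG (0.0377) without dLG d, and Adrb1 in VPM over MGv without dLG b (0.0971) or c (0.0907). Adra1d had 0 to 20 counts a library and Adra2c 0 to 80, and the cause of their spread was not tested.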
